A study of Mus musculus with 4 samples.

Results

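Late spermatocytes are the male germ cells that have finished recombining their chromosomes and are about to pass through the meiotic divisions. Here they were taken as 7408 of the 57727 kept cells (12.8%) of dissociated mouse testis whose messages for Aurka, Aurkb, Cdk1 and Ccna1 stood out. Each cell was scored for 7 sets of marker genes, 29 genes in all, as the mean natural log of 1 plus the counts per 10000, and each score was standardised over all kept cells. Members were thus chosen by the measured levels of these genes. A cell was a member when the score of those 4 genes, called set C below, was the highest of its 7 scores and above 1. The other sets mark leptotene to zygotene (A), pachytene (B), early round spermatid (D), late round spermatid (E), elongating spermatid (F) and condensing spermatid (G) stages.

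The comparison is between mice given a high-fat diet (HFD) and controls given a normal diet (ND). Each diet has 2 libraries, titled Fat and Health by the submitters. Cells were captured in droplets with the 10x Chromium 3′ chemistry, which counts messages by unique molecular identifiers (UMIs), so that each UMI stands for 1 captured RNA molecule. The labels give no strain, age, length of feeding or animal number, and they leave unstated whether the libraries are separate animals. The p-values between diets therefore measure the spread between 2 libraries a diet, which may be technical.

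Meiosis reduces the chromosome number by a pair of divisions with no DNA copying between them. A spermatocyte stays in pachytene for days while homologous chromosomes are held together by the synaptonemal complex, and it then disassembles that complex, condenses its chromosomes and enters metaphase. Entry is driven by the kinase CDK1 bound to A-type and B-type cyclins. Ccna1 encodes cyclin A1, which is found chiefly in male germ cells and without which mouse spermatocytes arrest before the first division. Aurka encodes a kinase of the spindle poles, and Aurkb encodes the kinase of the chromosomal passenger complex, which corrects faulty attachments of chromosomes to the spindle. The X chromosome is silenced in pachytene spermatocytes, and round spermatids, the haploid products of the divisions, express some X-linked genes again.

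The promoters of 3 of the 4 defining genes are shown because these genes were read together to pick the cells. Aurkb had no entry among the promoter windows used, so its copies of the motif were not counted. Those of the B-type cyclins Ccnb1 and Ccnb2 are shown beside them because neither gene was part of the choice. Each run holds the 250 bases before the RefSeq gene start (build GRCm38.p6), 5′ to 3′ on the strand of the gene, and capitals mark CCAAT or its reverse complement ATTGG.

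Aurka: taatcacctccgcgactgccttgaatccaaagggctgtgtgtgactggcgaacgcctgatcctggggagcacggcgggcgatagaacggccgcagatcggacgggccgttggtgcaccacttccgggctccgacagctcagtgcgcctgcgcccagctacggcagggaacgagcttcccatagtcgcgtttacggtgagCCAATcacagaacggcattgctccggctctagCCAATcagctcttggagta
Cdk1: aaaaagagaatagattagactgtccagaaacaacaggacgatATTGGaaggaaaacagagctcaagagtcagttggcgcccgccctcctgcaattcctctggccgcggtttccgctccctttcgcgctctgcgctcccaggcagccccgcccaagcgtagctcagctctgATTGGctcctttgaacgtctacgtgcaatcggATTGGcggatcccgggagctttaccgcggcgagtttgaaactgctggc
Ccna1: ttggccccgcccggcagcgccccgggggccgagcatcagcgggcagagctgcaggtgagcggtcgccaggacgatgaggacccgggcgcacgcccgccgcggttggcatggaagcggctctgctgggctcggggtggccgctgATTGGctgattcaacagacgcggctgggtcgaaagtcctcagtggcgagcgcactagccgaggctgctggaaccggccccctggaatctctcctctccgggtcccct
Ccnb1: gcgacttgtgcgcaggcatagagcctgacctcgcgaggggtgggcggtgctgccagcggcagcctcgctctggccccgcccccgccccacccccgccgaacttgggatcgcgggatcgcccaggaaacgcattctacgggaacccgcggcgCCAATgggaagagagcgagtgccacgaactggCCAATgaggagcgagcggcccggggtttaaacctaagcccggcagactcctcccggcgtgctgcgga
Ccnb2: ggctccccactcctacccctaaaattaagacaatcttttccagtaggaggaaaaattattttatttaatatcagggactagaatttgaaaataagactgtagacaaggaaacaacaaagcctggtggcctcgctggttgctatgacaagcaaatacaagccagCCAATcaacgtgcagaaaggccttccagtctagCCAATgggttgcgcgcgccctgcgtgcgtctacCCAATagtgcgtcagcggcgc

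Aurka lies on the minus strand of chromosome 2, and its run covers chr2:172370571-172370820. The other runs, all on the minus strand too, cover chr10:69352913-69353162 for Cdk1, chr3:55055056-55055305 for Ccna1, chr13:100786487-100786736 for Ccnb1 and chr9:70421555-70421804 for Ccnb2. Aurka holds 2 copies of the motif whose starts are 32 bases apart, and Ccnb1 also holds 2 copies 32 bases apart. In Cdk1 there are 3 copies, in Ccnb2 there are 3 and in Ccna1 there is 1. At least 1 copy on either strand occurs in 33.8% of all 32851 RefSeq promoter windows of the same length, and at least 2 copies occur in 10.1%. Among the 13 genes with a window in the list of kinases and cyclins of division entry, 6 hold at least 2 copies. The same holds for 7 of 20 genes of the kinetochore and its checkpoint, 7 of 21 spindle and cytokinesis genes, and 1 of 17 synaptonemal complex and cohesin genes. These matches describe the letters and are not measured binding sites.

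The 4 libraries held 13561 to 15290 barcodes and 143748262 to 154221188 UMIs, and the filters on genes and mitochondrial share left out 13 to 42 barcodes a library. Members numbered 2152 and 2103 in the HFD libraries and 1599 and 1554 in the ND libraries, with 20126027 to 29893160 UMIs a library. Between 42 and 65 kept barcodes were shared by any pair of libraries, and at most 3 were members in both. A doublet caller marked 2.70%, 5.99%, 4.57% and 3.41% of members in HFD 1, HFD 2, ND 1 and ND 2, and they were kept in the main counts.

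The members were not one population by depth. Their median was 6820 UMIs, against 18417 in the pachytene set and 10898 in the early round spermatid set, and the distribution had several peaks. Below 5000 UMIs lay 3490 members (47.1%), with a median of 1970 UMIs. Between 5000 and 20000 lay 2136 (28.8%, median 10174), and 1782 (24.1%, median 35164.5) had 20000 or more. These limits were chosen after the distribution was seen. The shallow members carried 7.91% of all member UMIs, the middle ones 24.0% and the deep ones 68.1%, so sums over members rest mainly on deep cells. By library the middle share ran from 20.9% to 29.4%, and it was lower in both HFD libraries than in both ND libraries. A shallow member had a median of 3 UMIs of the 4 defining genes, against 12 in the middle range and 40 in the deep one.

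**Figure D1:**
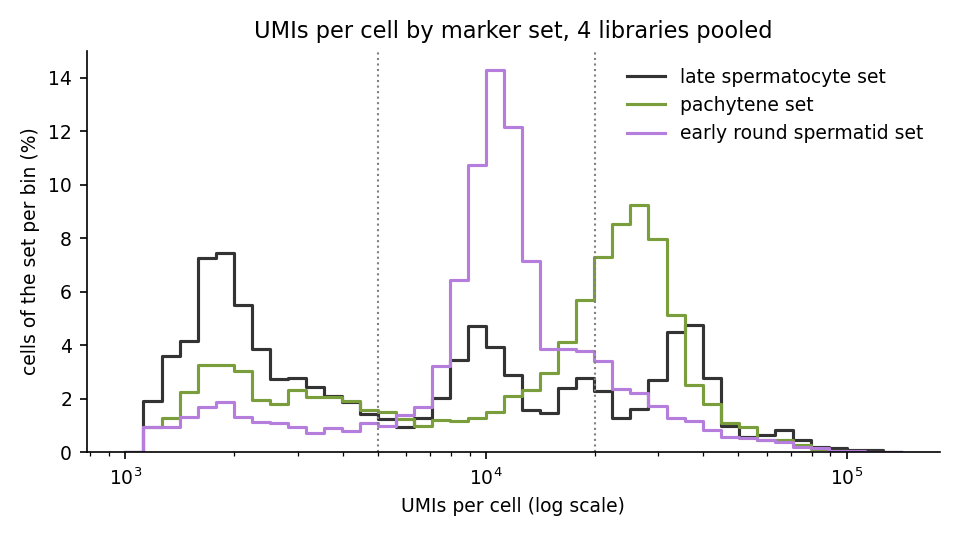
Distribution of UMIs per cell (x axis, log scale) as the percentage of each set's cells per bin (y axis), for late spermatocyte, pachytene and early round spermatid sets over the 4 libraries, with dotted lines at 5000 and 20000 UMIs. The late spermatocyte set has 1 peak below 5000 UMIs, another in the middle range where the early round spermatid set peaks, and another above 20000 UMIs. A smaller peak lies just below 20000 UMIs.

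The label was checked against marker lists, all outside the rule except Tnp2 among the elongating spermatid markers. Deep members carried 13257 CPM (UMIs of a gene per 1e6 UMIs of the group) summed over 8 markers of pachytene to diplotene spermatocytes, against 13132 CPM in the pachytene set. This sum separates stages weakly, since it was 11514 CPM in the leptotene to zygotene set, 10776 in the early round spermatid set and 11462 in shallow members. Within this list Sycp1 and Hist1h1t went the other way, being lower over all members than in the pachytene set, at levels given below. Sycp3 also stepped down from the pachytene set to early round spermatids, with deep and middle members in between. The sum therefore does not stand for every spermatocyte marker. In deep members summed spermatogonium markers were at 8.41 CPM, and summed Leydig, Sertoli and macrophage markers were at 23.7, 22.4 and 3.45 CPM. Middle members were less clear than deep ones. The 6 round spermatid markers outside the rule summed to 1090 CPM in middle and 805 in deep members. They were at 531 CPM in the pachytene set and 2180 in the early round spermatid set. Shallow members went against the label in part. Their 6 elongating spermatid markers summed to 15217 CPM, against 4393 in the middle range and 2712 in deep members. Their Leydig, Sertoli and macrophage markers summed to 145, 259 and 168 CPM, and their median mitochondrial share was 1.55% against 0.313% in deep members. Cells below 5000 UMIs that were above 1 in no set came close to shallow members in germ cell sums. Theirs were 17113 CPM for the elongating markers and 10718 for the pachytene to diplotene ones. Round spermatid markers were at 907 CPM, against 909 in shallow members. Leydig, Sertoli and macrophage sums were higher in the cells of no set, at 718, 520 and 494 CPM. Counts of genes called between the diets are therefore given for all members and again for cells of at least 5000 UMIs.

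Messages of the defining genes also appeared in cells that should lack them. Among 1459 cells carrying at least 4 of 6 Leydig cell markers, with a median of 6140 UMIs, 34.3% had an Aurka UMI, 35.6% a Ccna1 UMI, 20.5% a Cdk1 UMI and 6.24% an Aurkb UMI. Among members, at a median of 6820 UMIs, the shares were 91.4%, 87.3%, 73.7% and 41.0% in the same order. Of the Leydig marker cells 51 were themselves members. All 4 defining genes were detected in 2215 members, whose median was 31755 UMIs, and only 2 of them in 2696 members, whose median was 1894. Near the threshold, 361 members scored 1.0 to 1.1 and 293 cells with set C highest scored 0.9 to 1.0. Both groups had a median of 3 set C UMIs, at medians of 4034 and 3595 UMIs per cell.

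The levels of the 4 defining genes chose the members and are given as a description. In members Aurka averaged 479 CPM, against 189 in the pachytene set, the next highest. Cyclin A1 message, Ccna1, averaged 405 CPM against 201 in the early round spermatid set. Cdk1 averaged 227 CPM against 101 in the leptotene to zygotene set, and Aurkb 61.2 against 19.1 in the pachytene set. Aurka and Ccna1 were therefore the more abundant of the 4, and Aurkb was detected in 19.97% of shallow and 87.2% of deep members.

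Cyclins and kinases of division entry outside the rule differed from pachytene cells in both directions. Ccnb1, which encodes cyclin B1, was at 211, 216, 234 and 215 CPM in members of HFD 1, HFD 2, ND 1 and ND 2. In the pachytene set it was at 29.6, 30.7, 26.2 and 27.0 CPM, so no library overlapped between the sets. Plk1, a kinase of mitotic entry and centrosome maturation, was at 161 CPM in members, 29.4 in the pachytene set and 114 in the early round spermatid set. Cdc25a, a phosphatase that activates cyclin-dependent kinases, was at 85.8, 23.3 and 63.5 CPM in the same order. Other genes were lower in members: Cks2, a small subunit of the CDK1 complex, was at 306 CPM in members against 842 in the pachytene set. Pkmyt1, which encodes an inhibitory kinase of CDK1, was at 38.4 CPM against 75.6. Of the 13 genes of this list with at least 20 CPM in at least 1 of the 3 sets, 6 were higher in members than in pachytene cells and 11 higher than in early round spermatids. These are 46.2% and 84.6% of the list, and over all 7481 such genes the shares were 50.7% and 63.4%. The median log2 ratio of the list to pachytene cells was -0.16.

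Middle and deep members differed in the same genes, and both lay apart from the neighbouring sets. Ccnb1 was at 296, 305, 336 and 303 CPM in middle members of HFD 1, HFD 2, ND 1 and ND 2. In deep members it was at 190, 195, 195 and 189 CPM, below every middle value. Plk1 was at 192 CPM in middle members and 155 in deep ones, and Cdc25a at 108 and 80.5. Ccnb2, the second B-type cyclin of germ cells, was at 388 and 320 CPM. Cks2 went the other way, at 151 CPM in middle and 354 in deep members, and Cdk1 itself at 152 and 244. Since the rule scored these same cells, this is a description without a test.

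**Figure D2:**
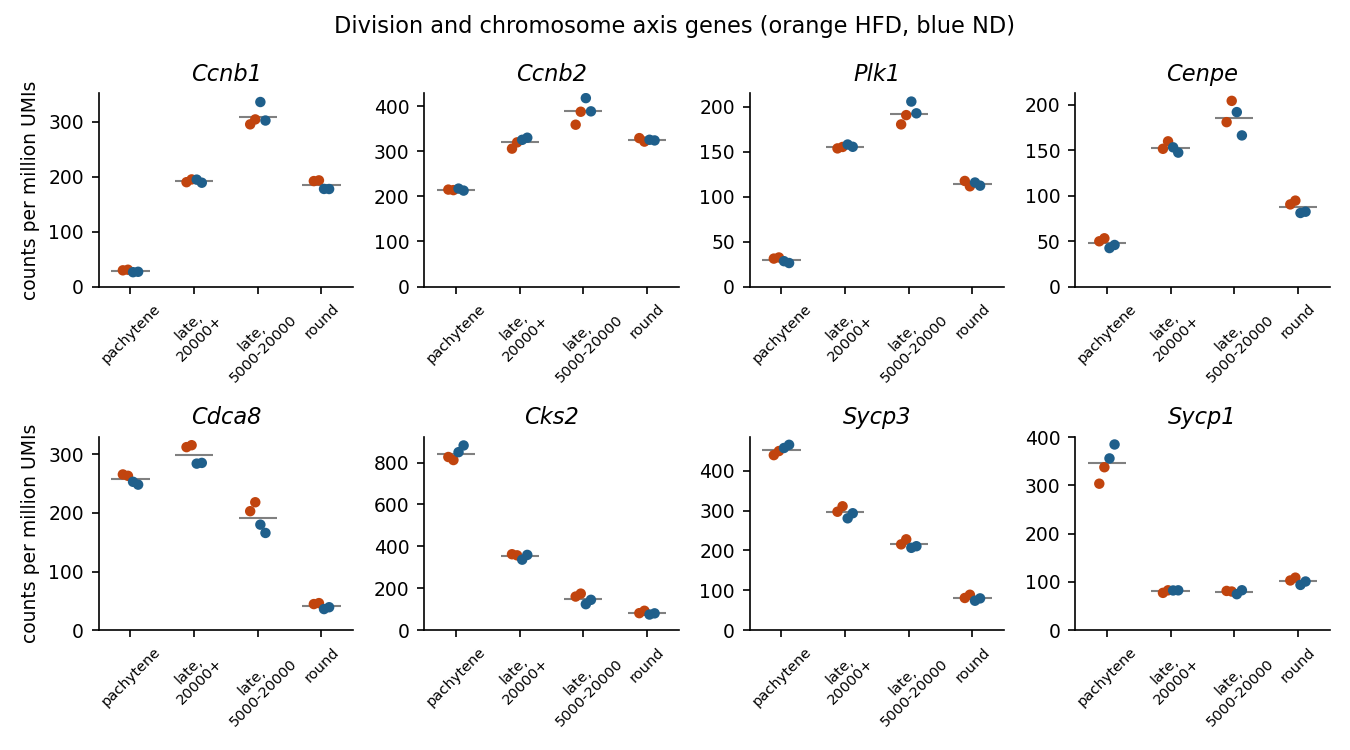
Levels in CPM (y axis) of 8 genes in the pachytene set, deep and middle late spermatocytes and the early round spermatid set (x axis), 1 point per library (orange HFD, blue ND) and grey lines at the mean of 4 libraries. Ccnb1, Ccnb2, Plk1 and Cenpe are highest in middle late spermatocytes, whereas Cks2 and Sycp3 step down from pachytene to round spermatids.

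Kinetochores join chromosomes to spindle fibres, and their checkpoint holds the cell until every chromosome is attached. Of 20 measured genes of this list, 10 were higher in members than in the pachytene set and 18 were higher than in the early round spermatid set. The first count is close to the 50.7% of all genes, and the list's median log2 ratio to pachytene cells was 0.00. Cenpe, a kinetochore motor, was at 158 CPM in members against 47.7 and 87.0. Spc25, of the NDC80 complex, was at 94.6 CPM against 18.1 and 39.4, and Incenp, the scaffold of the passenger complex, at 102 against 40.5 and 51.4. Birc5, which encodes the passenger protein survivin, was at 362 CPM against 253 and 150. Sgo2a, which encodes the shugoshin that shields cohesin at centromeres in the first division, was at 116 CPM against 89.99 and 19.0. The other 10 genes were lower in members than in pachytene cells. Zwint was at 31.6 CPM against 49.4, Cenpc1 at 24.0 against 57.1 and Spc24, which pairs with Spc25, at 38.5 against 74.6. The checkpoint genes Mad1l1 and Bub1b were at 13.8 and 44.9 CPM against 27.1 and 53.1.

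The anaphase-promoting complex tags cyclin B and securin for destruction when the chromosomes separate. Of 15 genes of this list 9 were higher in members than in pachytene cells, 60.0% against 50.7% of all genes. Its activator Cdc20 was at 347 CPM in members, 257 in the pachytene set and 154 in the early round spermatid set. The other activator, Fzr1, was at 178, 93.3 and 152 CPM. Its E2 enzyme Ube2c was at 75.2 CPM against 22.1 in pachytene cells and 68.7 in early round spermatids. Pttg1, which encodes securin, was at 246 CPM against 198 and 103, and Espl1, which encodes the protease separase that securin restrains, at 53.2 against 34.9 and 20.3. Core subunits were among the lower genes, with Anapc5 at 13.1 CPM in members against 33.0 in pachytene cells and Anapc11 at 187 against 237. Of 20 spindle and cytokinesis genes measured, 12 were higher in members than in pachytene cells, among them Nusap1 at 118 against 53.4 CPM and Kif23 at 63.6 against 18.7, both of which act on spindle microtubules. Prc1, a cross-linker of the central spindle, was at 213 against 282 CPM.

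Genes of the chromosome axis and of recombination were mostly lower in members than in pachytene cells. Sycp1, which encodes the transverse filament of the synaptonemal complex, was at 81.1, 84.2, 82.5 and 84.7 CPM in members of HFD 1, HFD 2, ND 1 and ND 2. In the pachytene set it was at 303, 337, 356 and 385 CPM. Tex12, which encodes a central element protein, was at 10.2 CPM against 80.4, whereas Syce1, of the same element, was at 816 against 753. Of 13 measured axis and cohesin genes 3 were higher in members, and of 7 recombination genes 1 was. The crossover gene Mlh3 was at 36.0 CPM against 61.9, and Topbp1, which activates the kinase ATR in damage signalling and X silencing, at 10.0 against 48.2. Hist1h1t, the testis linker histone, was at 19.1 CPM against 83.8. The piRNA genes Tdrd1 and Piwil2 were at 42.6 and 36.4 CPM against 182 and 94.7, and 4 of 15 piRNA genes were higher in members.

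Genes of the acrosome and tail, structures built after the divisions, were higher in members than in pachytene cells. All 20 of the listed genes were higher in members, with a median log2 ratio of 0.69, against 0.01 over all 7481 genes, and 17 of 20 were lower in members than in early round spermatids. Catsper2, a subunit of the sperm calcium channel, was at 381 CPM in members, 181 in the pachytene set and 278 in the early round spermatid set. Zpbp2, an acrosome protein, was at 774, 453 and 596 CPM. Other genes of this list were far higher in the later set: Acrv1 was at 58.7 CPM in members and 444 in early round spermatids, and Ropn1 at 82.8 and 737. For such genes deep and middle members differed, at 30.5 and 118 CPM for Acrv1. The part of doublets and of free RNA in these levels was not tested.

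The genes that most set members apart, beyond the rule's own, were ranked by the ratio of their mean CPM to the highest mean in any of the other 7 classes, among 1067 genes of at least 200 CPM in every library's members. The first was 4932431P20Rik, at 339, 368, 334 and 316 CPM in members of HFD 1, HFD 2, ND 1 and ND 2 and 156 in the pachytene set, a ratio of 2.17. Slc22a21, a carnitine transporter, followed at 298 CPM and a ratio of 1.92, and Reep4, which clears endoplasmic reticulum from chromosomes in division, at 253 CPM and 1.88. Pdzd9 was at 646 CPM with a ratio of 1.82, and Jagn1, a protein of the endoplasmic reticulum, at 222 CPM with 1.81. The other genes among the first 20 had ratios of 1.59 to 1.80 and included Galntl6, Rasl2-9, Pxt1, Tlcd1, Pbp2, Cd320, Phospho2, Ciapin1 and Rfc1. For most of the 20 the next class was the cells above 1 in no set, whose median was 1954 UMIs. In the list of the unfolded protein response, Hspa5, the chaperone of the endoplasmic reticulum, was at 601 CPM against 374 and 203 in pachytene cells and early round spermatids.

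X-linked messages, which no set used as such, were scarce in members. X-linked UMIs made up 0.180% of member UMIs as the mean of the 4 libraries, against 0.0938% in the pachytene set and 0.908% in the early round spermatid set. Deep members were at 0.0965%, close to the pachytene set, middle members at 0.322% and shallow members at 0.473%. Late round spermatids reached 1.502% and elongating spermatids 1.56%. Between the diets, members were at 0.164% ± 0.0141 (SD, n = 2) in HFD and 0.196% ± 0.0017 in ND. The 2 groups did not overlap, and the two-sided exact permutation p was 0.3333, the smallest that 2 libraries against 2 can give. The share was lower in both HFD libraries in other sets too, at means of 0.0876% against 0.0999% in the pachytene set, 0.882% against 0.933% in the early round spermatid set and 0.750% against 0.937% in cells above 1 in no set. In late round and condensing spermatid sets, and in middle members, the diets overlapped.

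**Figure D3:**
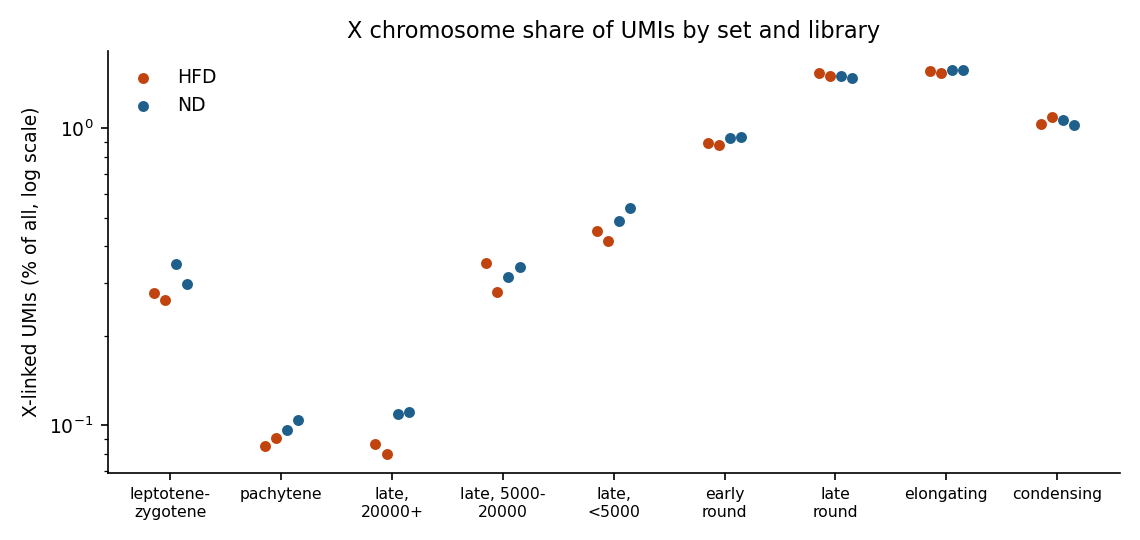
X-linked UMIs as a percentage of all UMIs (y axis, log scale) in the marker sets ordered by stage, with late spermatocytes split by depth (x axis), 1 point per library. Deep late spermatocytes sit at about 0.1% beside the pachytene set, and the share is higher in middle members and in the spermatid sets.

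Members of the late spermatocyte set, of all depths, took up a larger share of the kept cells on the high-fat diet. They were 15.9% of cells in HFD 1 (exact Clopper-Pearson 95% interval 15.3 to 16.5) and 14.6% in HFD 2 (14.1 to 15.2). In ND 1 they were 10.5% (10.0 to 11.0) and in ND 2 10.7% (10.2 to 11.2). The intervals cover counting error only. Both HFD libraries lay above both ND libraries, at means of 15.3% ± 0.877 (SD, n = 2) and 10.6% ± 0.121. The log2 ratio was 0.53 (SE 0.053), with an adjusted p of 0.000227 (edgeR quasi-likelihood test on cell numbers, Benjamini-Hochberg over 8 classes). The exact permutation p of the shares was 0.3333, the smallest possible. The pachytene set was also higher, with a log2 ratio of 0.34, and the early round spermatid set was lower at -0.29, both past the threshold. The leptotene to zygotene set was higher by 0.22. Late round spermatids at -0.33, elongating spermatids at -0.16 and cells of no set at -0.21 were lower. These passed too, so every class but the condensing spermatid set (-0.08) was called. Shares of 1 library sum to the whole, so a higher share of one class lowers the others. Outside the members, the 4 defining genes summed higher in both HFD libraries than in both ND libraries in every other class. In cells above 1 in no set they were at 396 to 398 CPM in HFD and 355 to 362 in ND. In the pachytene set they were at 393 to 398 and 350 to 354. The part of this in the share of members was not tested.

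The difference was also seen when members were split by depth. Among kept cells of at least 5000 UMIs, members made up 14.8% and 14.2% in the HFD libraries and 10.9% and 10.8% in the ND libraries, a log2 ratio of 0.41 that also passed (edgeR quasi-likelihood, adjusted p 0.000608). Shallow members, which went against the label in part, were 7.87% and 6.97% of all kept cells in HFD and 4.75% and 4.79% in ND. In percentage points this gap was the widest of the 3 ranges. Middle members were 4.18% and 3.98% against 3.48% and 3.21%. Deep members were 3.84% and 3.70% against 2.26% and 2.65%. In all 3 ranges both HFD libraries lay above both ND libraries, as shares of all kept cells and not of cells of the same depth. Yields of cell types after dissociation were not measured, and a share among recovered cells cannot be told apart from a share in the tissue.

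**Figure D4:**
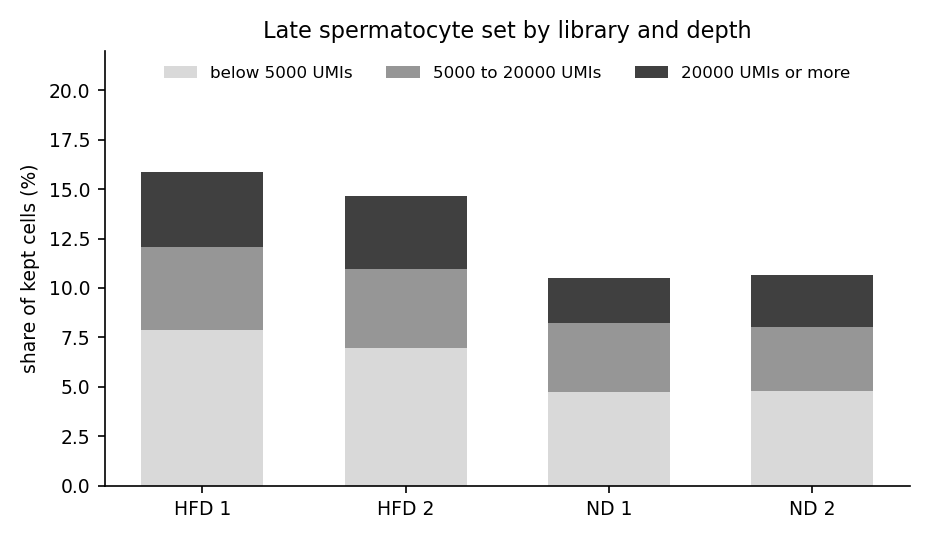
Late spermatocytes as a percentage of all kept cells (y axis) in each library (x axis), stacked by UMIs per cell. The 2 HFD bars reach 15.9% and 14.6% and the 2 ND bars 10.5% and 10.7%, and each of the 3 depth ranges is larger in both HFD libraries.

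UMIs per member did not separate the diets in a stable way. The median was 5110 in HFD 1 and 6726 in HFD 2, and 7557 in ND 1 and 7888 in ND 2 (exact permutation p 0.3333, the smallest possible). The HFD median was lower by 1805 UMIs over all members, but among cells of at least 5000 UMIs it was higher by 1777.

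For messages within late spermatocytes, UMIs were summed over the members of each library and 17082 genes were tested between the diets with edgeR's quasi-likelihood test and Benjamini-Hochberg adjustment over all of them. At an adjusted p below 0.05, 139 genes were called, 0.814% of those tested. Of these 65 were higher in HFD (0.381%) and 74 lower (0.433%), and in each the 2 HFD libraries lay on one side of the 2 ND libraries, as they did for 47.1% of all genes tested. Most changes were small, with a median size of 0.44 on the log2 scale, and 45 of the 139 were beyond 1.5-fold. Among cells of at least 5000 UMIs 363 genes were called, 2.24% of 16238 tested, and 137 of the 139 were among them. The count also rested on single libraries: it was 655 without HFD 1 and 451 without ND 1. Levels in this and the next paragraphs are CPM scaled by edgeR's trimmed mean of M-values (TMM) unless stated otherwise. A total of 86 called genes averaged at least 20 CPM, and those named below were taken from them by size.

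Within members the 4 defining genes had nearly equal levels in both diets, as a description. Aurka was at 479, 480, 481 and 477 CPM in HFD 1, HFD 2, ND 1 and ND 2, and Ccna1 at 396, 407, 414 and 406. Aurkb was at 61.5, 63.7, 60.8 and 59.0 CPM. Cdk1 was at 235, 244, 210 and 222 CPM, higher in both HFD libraries. The rule itself acts on these genes, so no test is given.

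Of the called genes of at least 20 CPM, the 3 with the largest rise lie near each other on chromosome 18. Genes below that level rose more, among them Tmem40 by 2.95 and Gm9946 by 2.47 on the log2 scale, both picked out after their values were seen. Psmg2, which encodes a chaperone of proteasome assembly, was at 44.6 and 44.6 CPM in HFD 1 and HFD 2 and at 21.3 and 21.2 in ND 1 and ND 2. The log2 ratio of Psmg2 came to 1.07 (SE 0.060; edgeR with Benjamini-Hochberg adjusted p 1.65e-05). Ptpn2, a tyrosine phosphatase that restrains JAK and STAT signalling, was at 32.1, 30.8, 16.4 and 16.3 CPM in the same order, a log2 ratio of 0.94. Ldlrad4, an inhibitor of TGF-beta signalling, was at 30.4, 30.9, 21.95 and 18.1 CPM, a ratio of 0.62. In all 3 genes the HFD libraries nearly coincided and lay well above the ND libraries. Cep76, a centriole gene next to Psmg2 that averaged 6.68 and 3.33 CPM, rose by 1.00 too, and was singled out after its value was seen. Between Ptpn2 and Ldlrad4, 4930549G23Rik had a log2 ratio of 0.03, Seh1l of -0.13 and Cep192 of 0.19, and none of the 3 was called. These 3 ratios were not particular to late spermatocytes: Psmg2 was at 0.95 and 0.91, Ptpn2 at 0.93 and 1.16 and Ldlrad4 at 0.92 and 0.55 in the pachytene and early round spermatid sets, each called there by edgeR.

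The other named genes that rose did so by 0.37 to 0.53 on the log2 scale. 3110070M22Rik, a protein-coding gene of chromosome 13, was the most abundant, at 309, 312, 221 and 224 CPM in HFD 1, HFD 2, ND 1 and ND 2, and its ratio came to 0.48 (SE 0.034; edgeR adjusted p 9.96e-05). Gm33340, a noncoding RNA, was at 52.1, 55.6, 39.2 and 35.3 CPM, and 4930556C24Rik at 43.9, 44.4, 30.8 and 31.1. Emx2, a homeobox transcription factor, was at 42.1, 40.6, 30.3 and 33.4 CPM, and Decr1, an enzyme of mitochondrial oxidation of unsaturated fatty acids, at 25.4, 25.1, 19.4 and 19.5. D130017N08Rik, 4933414I15Rik, Gm48544 and 4930533D04Rik had ratios of 0.44, 0.44, 0.40 and 0.37. Of these 9 genes, 8 were also called higher in the pachytene set, all but D130017N08Rik, and 4 in the early round spermatid set. The ratios in those sets were 0.56 and 0.46 for 3110070M22Rik, 0.54 and 0.29 for Gm33340 and 0.49 and 0.64 for Decr1, each called there by edgeR. Emx2 was at 0.80 in the pachytene set, called, and at 0.35 in early round spermatids, not called. Each of these groups of values was separated between the diets, and each gene was also called among cells of at least 5000 UMIs. Decr1 and 4930533D04Rik did not pass without ND 2, and DESeq2 gave Decr1 an adjusted p of 0.102.

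Most genes that fell had a higher level in early round spermatids. Called genes below 20 CPM fell by more than those named here, among them Ifit3 at -2.95 and Klk1b21 at -2.36 on the log2 scale. Klk1b24 at -2.29 and Hspa1a at -1.41 did too, and all were picked out after their values were seen. These genes were not clearly higher in early round spermatids. Their log2 levels there over members, each plus 1 CPM, were -0.42, -0.08, 0.01 and -0.54 in the order given. Klf2, a zinc-finger transcription factor, was at 22.8, 17.5, 33.1 and 33.3 CPM in HFD 1, HFD 2, ND 1 and ND 2. The log2 ratio of Klf2 came to -0.72 (SE 0.0999; edgeR, Benjamini-Hochberg adjusted p 0.011), and its plain level was 120 CPM in the early round spermatid set against 26.7 in members. Foxj1, the transcription factor of motile cilia, was at 19.6, 18.2, 26.7 and 27.1 CPM, a ratio of -0.51, with 98.6 CPM in early round spermatids against 22.9. Ribc1, an X-linked gene of the tail axoneme, was at 30.2, 26.5, 44.8 and 37.9 CPM, a ratio of -0.54. Slc6a6, the taurine transporter, had a ratio of -0.47, and Iqca, Ccdc184 and Cxxc5 had ratios of -0.51, -0.45 and -0.45. In each the HFD libraries lay below the ND libraries. Without HFD 2 neither Ccdc184 nor Cxxc5 passed, and Ccdc184 also did not pass without ND 2. Of the 74 genes that fell, 67 (90.5%) had a higher level in early round spermatids than in members, against 37.5% of all genes tested. Of the 64 that rose, leaving out 1 rule gene, 4 did (6.25%). Of those 64, 52 (81.3%) were higher in the pachytene set than in the early round spermatid set, against 57.5% of all genes tested.

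Several genes that fell lie on chromosome 14. Of the 12 named by size, 5 lie there, namely Gm10376 at -0.69, 1700001F09Rik at -0.59, Gm3453 at -0.54, BC061237 at -0.51 and Gm5800 at -0.48 on the log2 scale. 1700001F09Rik was at 41.5, 34.8, 59.4 and 55.8 CPM in HFD 1, HFD 2, ND 1 and ND 2. In all, 18 of the 74 genes lie on chromosome 14, which holds 4.41% of the genes tested, and 13 of the 18 are Gm models. The share of Gm models among all genes tested was not counted, and the sequences of these genes were not compared. Reads of near-identical copies can be split or lost in counting, so where these genes are such copies the ratio of a single one is uncertain.

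**Figure D5:**
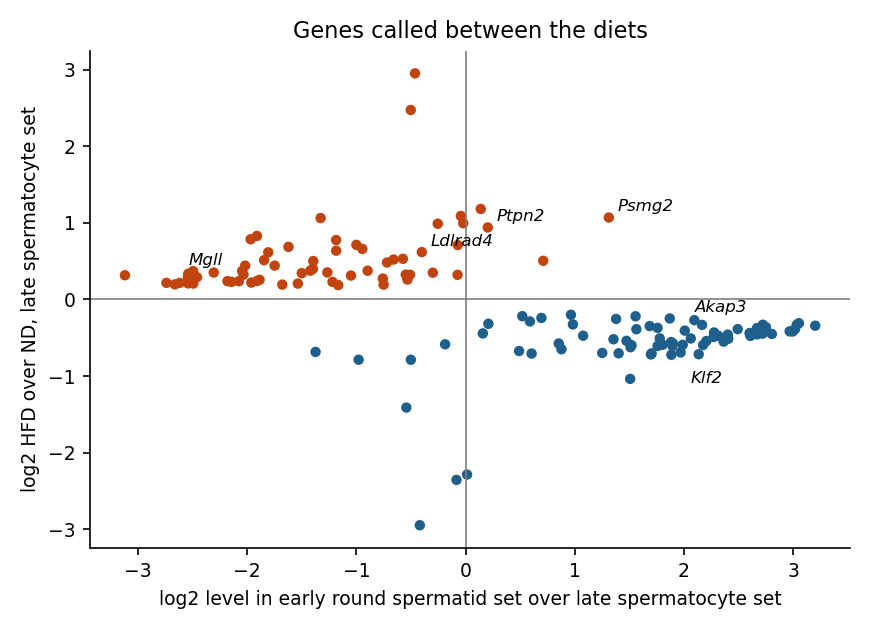
Log2 ratio of HFD over ND in late spermatocytes (y axis) against the log2 ratio of the mean level in the early round spermatid set over that in late spermatocytes, each plus 1 CPM (x axis), 1 point per called gene outside the rule. Of the 74 genes below the horizontal line 67 lie to the right of 0, and of the 64 above it 4 do.

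Several sums of spermatid markers were also lower in members of the HFD libraries, here in plain CPM. The 6 round spermatid markers outside the rule, which include Acrv1 and Spaca1, summed to 856 to 869 CPM in HFD and 901 to 906 in ND. The 4 markers of the early round spermatid set, on which the rule itself acts, summed to 75.7 to 88.4 CPM in HFD and 100.7 to 103.5 in ND, with no gene at 0. The 6 elongating spermatid markers, Prm1 among them and Tnp2 part of the rule, summed to 3514 to 4085 CPM in HFD and 4160 to 4561 in ND. The diets did not overlap in the first of these sums. Nor did they in the other two, but the rule used the genes of one and Tnp2 of the other, and those values are a description. In deep members, which carry most UMIs, the elongating markers summed to 2108 to 2345 CPM in HFD and 3048 to 3346 in ND, the early round markers of the rule to 38.6 to 44.7 and 53.6 to 55.2, and the round spermatid markers outside the rule to 793 to 796 and 806 to 826. In middle members the round spermatid markers overlapped, at 1039 to 1107 and 1096 to 1119 CPM, as did the elongating markers, at 4068 to 4716 and 3804 to 4986. The late round spermatid markers of the rule also overlapped over all members, at 27.5 to 30.1 and 25.6 to 29.8 CPM, as did the condensing spermatid markers. In deep members the late round markers were higher in HFD, at 20.9 to 21.7 CPM against 18.5 to 20.5. There the condensing markers were lower, at 37.9 to 39.8 CPM against 44.6 to 54.3. Spermatocyte markers went the other way over all members. The 8 pachytene to diplotene markers outside the rule summed to 13080 to 13088 CPM in HFD and 12785 to 12794 in ND, and the 4 pachytene markers of the rule to 476 to 481 and 430 to 433. Some of these moves appeared in neighbouring sets too. In pachytene and early round spermatid sets the elongating markers summed to 3178 to 3343 and 5176 to 5976 CPM in HFD. In ND they summed to 3548 to 3776 and 6177 to 6853. The sum of round spermatid markers was lower in HFD in the early round spermatid set but higher in the pachytene set. The sum of the 8 pachytene to diplotene markers was higher in HFD in both sets and in every other class. In condensing spermatids it was at 7108 to 7179 CPM against 6466 to 6640, and in cells of no set at 10384 to 10463 against 9364 to 9444. In middle members it overlapped, at 12460 to 12505 CPM in HFD and 12372 to 12614 in ND. Middle members also supplied a smaller share of member UMIs in both HFD libraries, as given above. The part of all these differences in the genes that fell or rose was not tested. Split by depth, 283 genes were called in deep members (1.93% of 14670), 16 in middle and 10 in shallow ones. Klf2 was at -0.99, -0.42 and -0.56 in deep, middle and shallow members, called in the deep ones only, and the difference between ranges was not tested.

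Among kinetochore and checkpoint genes 3 of 23 tested rose and 0 fell, where 0.381% of all genes tested rose and 0.433% fell. The median log2 ratio was 0.09, against -0.00 over all genes tested. Cdca8, which encodes borealin of the passenger complex, was at 282, 290, 247 and 251 CPM in HFD 1, HFD 2, ND 1 and ND 2, which is a ratio of 0.20 (SE 0.035; edgeR adjusted p 0.0281). Knl1, the kinetochore scaffold for checkpoint proteins, was at 48.1, 50.4, 41.3 and 37.5 CPM, a ratio of 0.32. Sgo2a was at 124, 125, 105 and 109 CPM, a ratio of 0.21. In each gene both HFD libraries were above both ND libraries. The calls were fragile: without HFD 2 none of the 3 passed, Knl1 also did not pass without ND 2 or Sgo2a without ND 1, and DESeq2 gave Sgo2a an adjusted p of 0.0555. In the list 19 of 23 ratios were above 0, against 8431 of 17082 over all genes. Their ratios in the pachytene and early round spermatid sets were 0.11 and 0.25 for Cdca8, 0.12 and 0.39 for Knl1 and 0.19 and 0.37 for Sgo2a. Sgo2a was called by edgeR in both of these sets and Cdca8 in early round spermatids, whereas Knl1 was called in neither. The higher sums of pachytene markers given above move with these genes, and their part was not tested.

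In 5 further division lists no gene passed edgeR's test, where 0.814% of all 17082 genes tested did. DESeq2 called 0 of them too, though it gave no adjusted p for 7617 of the 17082 genes. The lists are 16 entry kinases and cyclins (median log2 ratio -0.06), 18 genes of the anaphase-promoting complex (-0.01), and 24 of the spindle (0.04). The others are 16 of the synaptonemal complex and cohesin (-0.00) and 17 of recombination (0.03). Ccnb1 was at -0.07 and Plk1 at -0.06 on that scale. At an unadjusted p under 0.05 these lists held 5, 3, 6, 5 and 2 genes, and 2726 of 17082 genes did so over all. In cells of at least 5000 UMIs edgeR called 1 of them, the spindle kinesin Kif20b, at 0.25, where 0.893% of 16238 genes rose. Among 13 regulators of spermatocyte division 1 was called, Mybl1, a transcription factor of pachytene, at 0.25; as one of the marker genes of set B it took part in choosing the members, and it is given as a description.

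Of genes that a high-fat diet could bear on, few passed. Mgll, which encodes the lipase that frees fatty acids from monoacylglycerol, was at 138, 144, 118 and 112 CPM in HFD 1, HFD 2, ND 1 and ND 2. The HFD libraries were higher by 0.29 on the log2 scale (SE 0.0435; edgeR, adjusted p 0.0157), and Mgll was the 1 gene called of 23 in the list of lipid uptake, storage and oxidation (median -0.01), where 0.814% of all genes were called. Mgll remained called in each fit without 1 library. The log2 level of Mgll in early round spermatids over members, each plus 1 CPM, was -2.46. Most genes that rose were likewise lower in early round spermatids. Decr1, described above, was called too and is not in that list. None of 24 cholesterol and fatty acid synthesis genes passed (median -0.08, 18 ratios below 0), and in cells of at least 5000 UMIs 1 fell, Sqle, which encodes an enzyme of cholesterol synthesis, at -0.24. None of 20 glycolysis genes (-0.08), 21 antioxidant genes (0.00), 12 genes of the unfolded protein response (0.00) or 18 genes of DNA damage and apoptosis (0.02) passed either. In cells of at least 5000 UMIs 3 glycolysis genes fell, Aldoart1 at -0.45, Gpi1 at -0.29 and Gapdhs at -0.29, out of 19 tested, where 1.34% of all genes fell. In the same cells 4 of 6 elongating spermatid markers and 2 of 6 round spermatid markers fell, with medians of -0.34 and -0.19. The elongating markers include Tnp2 of the rule, so their count is a description. The part of both marker lists in the glycolysis calls was not tested. Tpi1, a glycolytic enzyme outside the list that was picked out after its value was seen, fell in all members by 0.29 on the log2 scale. At an unadjusted p under 0.05 these lists held 4, 3, 7, 1, 2 and 6 genes, and 2726 genes did so over all. Chromatin and piRNA lists had 0 of 17 and 0 of 16 called, and 3 and 2 at an unadjusted p under 0.05. In cells of at least 5000 UMIs 1 piRNA gene rose, Pld6, at 0.22. DESeq2 called 0 genes in each of these lists except the lipid list, where it called Mgll.

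Of the 20 acrosome and tail genes 1 fell, and 19 of the 20 ratios were below 0, with a median of -0.13. Over all genes 0.433% fell and 8651 of 17082 ratios were below 0. Akap3, which encodes an anchor of the fibrous sheath of the tail, was at 49.1, 42.6, 59.5 and 59.5 CPM in HFD 1, HFD 2, ND 1 and ND 2, and its log2 ratio came to -0.37 (SE 0.066; edgeR adjusted p 0.0268). Akap3 did not pass without HFD 2, and it was called lower in the pachytene and early round spermatid sets too, at -0.34 and -0.13. In cells of at least 5000 UMIs 6 of the 20 fell, against 1.34% of 16238 genes. The sums of spermatid markers given above, which share Acrv1, Spaca1 and other genes with this list, move with it, and their part was not tested. Insl3, a hormone of Leydig cells and foreign to germ cells, was called too, at 10.3, 10.8, 14.4 and 14.4 CPM and a ratio of -0.44. It was at 0.36 without called doublets and at -0.95 in deep members, called in neither, but it was called lower in cells of at least 5000 UMIs. Insl3 did not pass without ND 1 or without ND 2, and DESeq2 gave it an adjusted p of 0.177.

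To ask whether a gene's diet ratio differed between late spermatocytes and the stage before or after, the interaction was tested in 1 edgeR fit of sets B, C and D with the library as a block. Against the pachytene set 285 of 19996 genes were called (1.43%), 111 with a higher ratio in late spermatocytes and 174 with a lower one. Against the early round spermatid set 87 were called (0.435%), 15 higher and 72 lower. These counts depended on single libraries: without ND 1 they were 15 and 1, and without ND 2 they were 12 and 6. Without HFD 2 the first was 514, and without HFD 1 the second was 197. In cells of at least 5000 UMIs the balance against the pachytene set turned, with 128 higher and 87 lower, and against early round spermatids there were 24 higher and 65 lower. With no count filter the second comparison had 773 higher and 76 lower.

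Genes that fell in late spermatocytes led the lower side. Klf2 had a ratio of -0.72 in late spermatocytes, -0.11 in the pachytene set and -0.13 in the early round spermatid set, and the differences were -0.58 (SE 0.128) and -0.57 (SE 0.081), with edgeR adjusted p of 0.0138 and 0.000396. Against the pachytene set Klf2 did not pass in cells of at least 5000 UMIs (edgeR adjusted p 0.0785), and it passed in 1 of 4 fits without 1 library. Iqca, an axoneme gene, was at -0.51 against 0.15 and 0.09, and against the pachytene set it too did not pass in the deeper cells (edgeR adjusted p 0.118). Slc6a6, Gm5800 and Gm5458 followed against the pachytene set, with differences of -0.57, -0.56 and -0.55. Gm5800 varied most among them when 1 library was left out, from -0.78 to -0.36. Against early round spermatids 1700001F09Rik, Gm3453 and Gm10376 differed by -0.57, -0.56 and -0.55. All of these genes were far lower in the pachytene set, Klf2 at 5.83 CPM, than in early round spermatids.

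On the higher side the differences were smaller. G3bp1, which nucleates stress granules, was at 36.8, 37.0, 32.8 and 33.6 CPM in late spermatocytes of HFD 1, HFD 2, ND 1 and ND 2, a ratio of 0.15 that was not called, and at -0.17 in the pachytene set, a difference of 0.34 (SE 0.063; edgeR adjusted p 0.00377). Rfxap, Mrpl3, Ankrd10 and Gpat2, an acyltransferase of germ cells, differed from the pachytene set by 0.32, 0.32, 0.32 and 0.31. Gpat2 varied most among them when 1 library was left out, from 0.20 to 0.41. Against early round spermatids Gm13306, Actl9, 1700016K05Rik, Srpk2 and Atg12, a gene of autophagy, differed by 0.29, 0.28, 0.28, 0.24 and 0.24. None of these 10 genes was itself called in late spermatocytes. G3bp1 and Mrpl3 were called lower in the pachytene set, at -0.17 and -0.21, and Atg12 in early round spermatids, at -0.16. Neither Ankrd10 nor Gm13306 passed in cells of at least 5000 UMIs (edgeR adjusted p 0.0537 and 0.0531), and each of the 10 passed in 1 or 2 of the 4 fits without 1 library.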

How the data were processed

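Droplet single-cell libraries of mouse testis (2 HFD, 2 ND) were used as deposited. The matrices hold raw UMI counts per gene and barcode, which the authors deposited without normalisation per the file headers; the headers name software version 3.0.2, and the submitters' processing notes name build mm10. All 55450 gene identifiers matched GENCODE M21. The aligner is not given in the sources used here, and the deposited dense tables were not used here.

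Barcodes under 200 genes or above 20% mitochondrial UMIs were left out. Members follow the set C rule of the report, and the 4 set C genes, the other sets, the gene lists and the comparisons were chosen with earlier results of these data known. UMIs were summed per library, which is the replicate, and tested with edgeR 4.0.16 in R 4.3.3 (filterByExpr, TMM, quasi-likelihood) with Benjamini-Hochberg adjustment at 0.05. The SE of a log2 ratio is its size over the square root of F. Cell numbers were tested likewise over 8 classes, and medians and X shares by two-sided exact permutation. Doublets were called with Scrublet (scanpy 1.11.5) at an expected rate of 0.1.

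Named genes had an adjusted p below 0.05, separated diets and a mean of at least 20 CPM, up to 12 in each direction by size (up to 5 for interactions), with every called gene of a list. Leading genes had at least 200 CPM in each library's members. Alternatives were DESeq2 1.42.0, no count filter, a replicate block, score limits of 0.5 and 1.5, doublets left out, a mitochondrial limit of 10%, cells of at least 5000 UMIs and leaving out each library.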

Additional observations from a re-analysis of the deposited data

Results flagged for a closer look

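The diet ratio of the following genes differed between late spermatocytes and a neighbouring stage by the interaction test of edgeR (Benjamini-Hochberg adjusted p below 0.05), as late spermatocyte ratio minus the other. Against the pachytene set the log2 differences were -0.64 for Iqca, -0.58 for Klf2, -0.57 for Slc6a6, -0.56 for Gm5800 and -0.55 for Gm5458. On the other side they were 0.34 for G3bp1, 0.32 for Rfxap, 0.32 for Mrpl3, 0.32 for Ankrd10 and 0.31 for Gpat2. Against the early round spermatid set they were -0.59 for Iqca, -0.57 for Klf2, -0.57 for 1700001F09Rik, -0.56 for Gm3453 and -0.55 for Gm10376. In the other direction they were 0.29 for Gm13306, 0.28 for Actl9, 0.28 for 1700016K05Rik, 0.24 for Srpk2 and 0.24 for Atg12. In cells of at least 5000 UMIs Iqca, Klf2 and Ankrd10 did not pass against the pachytene set (edgeR adjusted p 0.118, 0.0785 and 0.0537), nor Gm13306 against the early round spermatid set (0.0531). Of 4 fits that each left out 1 library, 1700001F09Rik and Gm3453 passed in 3 and the others in 1 or 2.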

How the results depend on the processing

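The higher share of late spermatocytes in HFD kept its direction and stayed past the threshold in every edgeR alternative, with log2 ratios of 0.41 to 0.59. The log2 ratio of the mean shares was 0.53, and its exact permutation p of 0.3333 is the smallest that 2 libraries a diet allow. Of 139 genes called between the diets the count moved to 403 at a score limit of 1.5, 363 in cells of at least 5000 UMIs and 498 with no count filter, and ranged from 98 to 655 when each library was left out. In depth ranges added after seeing the data it was 10, 16 and 283. DESeq2 called 113. Against the pachytene set 285 interaction calls became 12 to 514 without 1 library. Against the early round spermatid set 87 became 1 to 197 without 1 library and 849 with no count filter. The difference in median UMIs reversed to 1054 at a score limit of 1.5 and 1777 in cells of at least 5000 UMIs. Insl3 reversed to 0.24 at a score limit of 1.5, 0.36 without doublets and 0.55 in shallow members, where 1700001F09Rik reversed to 0.33. In each case the cause was not tested.

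Same-numbered libraries are not stated to be paired. The difference of library 1 minus library 2 correlated at 0.0106 between the diets over 5663 genes. With a replicate block 673 genes were called, 139 of them shared with the fit without it, and the share ratio was 0.53.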
